A study of Mus musculus with 19 samples.

Results

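The nuclear genes that encode the mitochondrial ribosome and the mitochondrial protein import machinery were measured in obstructed kidneys of wild-type and CD5L-deficient mice. Members were the protein_coding entries of the count table whose names begin with Mrpl, Mrps, Timm or Tomm and then a digit. This gave 103 genes among 54532 entries, of which 22046 were protein_coding. They were 49 Mrpl genes (large ribosomal subunit), 29 Mrps genes (named for the small ribosomal subunit), 15 Timm genes (inner membrane translocases and their chaperones) and 10 Tomm genes (outer membrane translocase). The rule reads gene names and no measured value, although it was set with earlier results of these data known.

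RNA of whole kidneys was sequenced 12 days after unilateral ureteral obstruction (UUO), in which the left ureter was tied and cut. CD5L is a protein secreted mainly by tissue macrophages, and the study asked how its absence (CD5L KO) and its injection as recombinant protein (rCD5L) act on the injured kidney. All 19 mice were males on a C57BL/6J background, aged 8 to 9 weeks. By the study's design all kidneys were obstructed, so no group of unobstructed kidneys enters these comparisons. The degree of injury of each kidney was not given in the sources used here. WT mice received PBS (5 mice) or rCD5L (5 mice), and CD5L KO mice received PBS (4 mice) or rCD5L (5 mice). Injections were daily, with rCD5L at 0.5 mg per mouse and injection. Each library is 1 kidney of 1 mouse, and how the CD5L KO line was made was not given in the sources used here. In this bulk tissue, fewer cells of a type and less RNA per cell cannot be told apart.

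Mitochondria carry their own small genome, and a dedicated ribosome translates the respiratory chain subunits encoded in it. All proteins of that ribosome are encoded in the nucleus, made in the cytosol and imported through the TOM complex of the outer membrane and then the TIM23 complex of the inner membrane. The TIM22 complex inserts carrier proteins, with small TIM chaperones guiding them across the intermembrane space. Kidney tubules, the proximal tubule above all, are rich in mitochondria and depend on oxidative phosphorylation for solute transport.

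The promoters of a few of these genes are shown first. NRF1 and ETS family factors are the textbook regulators of nuclear genes for mitochondrial proteins. The genes shown were chosen by hand, and the shares over all matched members follow them. Whether these letters bear on the members' levels was not tested. Sequences are the 250 bases before the transcription start in RefSeq (GRCm38.p6), written 5′ to 3′ on the gene's strand. Capitals mark matches to NRF1 (GCGCANGCG), ETS (CCGGAAG) or YY1 (AAGATGG), searched on both strands. Mrpl41 (chr2:24975099-24975348, minus strand) had the largest difference by genotype under PBS and holds no match in this window, Mrpl30 (chr1:37890227-37890476, plus strand) holds 2 NRF1 matches, Timm8b (chr9:50603651-50603900, plus strand) holds 1 ETS match, and Tomm20 (chr8:126945922-126946171, minus strand) holds 1 NRF1 match.
Mrpl41: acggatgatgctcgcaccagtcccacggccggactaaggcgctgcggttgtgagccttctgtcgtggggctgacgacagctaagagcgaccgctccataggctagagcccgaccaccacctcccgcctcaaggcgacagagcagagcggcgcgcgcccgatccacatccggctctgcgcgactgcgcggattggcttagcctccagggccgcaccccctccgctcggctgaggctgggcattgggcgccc
Mrpl30: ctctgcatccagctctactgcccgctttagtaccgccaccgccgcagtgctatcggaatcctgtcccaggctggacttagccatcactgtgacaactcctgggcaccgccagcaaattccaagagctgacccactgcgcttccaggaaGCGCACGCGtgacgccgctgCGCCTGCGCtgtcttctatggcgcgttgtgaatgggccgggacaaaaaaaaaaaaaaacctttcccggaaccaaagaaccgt
Timm8b: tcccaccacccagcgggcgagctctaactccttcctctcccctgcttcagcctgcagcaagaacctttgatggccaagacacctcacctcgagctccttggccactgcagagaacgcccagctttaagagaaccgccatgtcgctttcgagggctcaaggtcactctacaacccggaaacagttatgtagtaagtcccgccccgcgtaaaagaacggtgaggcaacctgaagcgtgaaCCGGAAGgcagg
Tomm20: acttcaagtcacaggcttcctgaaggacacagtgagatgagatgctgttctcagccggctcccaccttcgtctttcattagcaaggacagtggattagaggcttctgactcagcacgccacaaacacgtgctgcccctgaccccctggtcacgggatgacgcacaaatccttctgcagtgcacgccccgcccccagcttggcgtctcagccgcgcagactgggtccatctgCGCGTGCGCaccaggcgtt

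In Mrpl30 the matches began 102 bases (same strand) and 82 bases (opposite strand) before the start, in Timm8b 12 bases before it, and in Tomm20 19 bases before it on the opposite strand. Among the 99 RefSeq promoters of the 91 members that could be matched by name, 15 (15.2%) held the NRF1 letters, against 5.16% of all 32851 mouse promoters of that length. The ETS letters were in 27 member promoters (27.3%) against 6.91% of all, and the YY1 letters in 7 (7.07%) against 4.49%. The Sp1 letters GGGCGG were found in 48.5% against 32.7%, the E-box CACGTG in 11.1% against 6.02%, the CCAAT box (CCAAT) in 35.4% against 33.8%, and an antioxidant response element (TGACNNNGC) in 12.1% against 10.2%. The median GC content was 58.4% in member promoters and 52.4% in all promoters, and Sp1, NRF1 and ETS letters are all rich in G and C. These are letter matches and describe the windows only.

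Of the 103 members, 99 passed the filter on low counts and were tested in every comparison. Mrpl53 had 0 counts in all 19 kidneys, Tomm20l 13 counts in total, Timm8a2 28 and Tomm6, a small subunit of the TOM complex, 50 with 0 to 9 in a kidney. For Mrpl53, 88.0% of the exon bases also belong to exons of Gm42688 on the same strand, which received 5 to 45 counts in a kidney, and for Tomm6 76.0% are shared on the same strand with Gm21981 (0 to 3 counts). Reads from such shared exons cannot be assigned to 1 gene, so the levels of both genes are uncertain. In all, 58 members share no exon base with another gene, and 5 share over 50% of their exon bases on either strand: besides those named, Mrps34 (77.8%), Mrps25 (69.8%) and Tomm40l (64.3%).

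The tested members were expressed well above the typical gene in these kidneys. Their median level, as the mean of the authors' FPKM values (fragments scaled to gene length and library size) over 19 kidneys, was 13.6, against 3.68 over all genes tested. By class the median was 16.8 FPKM for Mrpl (range 3.23 to 63.0), 9.63 for Mrps (2.52 to 62.9), 13.3 for Timm (1.41 to 76.6) and 16.9 for Tomm (2.17 to 43.0). The highest levels were those of the small TIM chaperone Timm8b (76.6 FPKM), Mrpl34 (63.0), Mrps21 (62.9), Timm13 (47.2), Mrpl52 (46.9), Mrpl54 (45.8) and Tomm5 (43.0). The lowest among tested members were those of Timm10b (1.41 FPKM), Tomm40l (2.17), Mrps30 (2.52), Mrps10 (3.02) and Mrpl47 (3.23).

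Library sizes ran from 17917491 to 23847090 counts. The Cd5l gene itself had 0 counts in all 9 CD5L KO kidneys and 3 to 15 counts in the WT kidneys, so the genotype labels held, at the low Cd5l level of the whole kidney. One library stood apart: replicate 4 of CD5L KO given rCD5L had a summed proximal tubule marker level of 26798 CPM (counts scaled to library size), against 1675 to 4201 in the other 18 kidneys, and the lowest sums of macrophage (1401 CPM) and fibroblast (1889 CPM) markers. Its injured tubule sum was also the lowest, at 634 CPM against 1573 to 2161 CPM in the other kidneys. Its thick ascending limb sum was the highest, at 5474 CPM against 1757 to 3489 CPM. The state of injury of this kidney was not tested. Its normalisation factor was 0.713. For each comparison that includes this kidney, the number of members above 0, the median and the numbers past the adjusted and unadjusted edgeR thresholds are given with and without it.

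Taken over all members, WT kidneys given rCD5L were lowest, and CD5L KO kidneys given PBS lay above WT kidneys given PBS. For each kidney, the median over the 99 members of the deviation from the gene's mean log2 CPM was taken. It was 0.10, 0.09, 0.19 and 0.08 in CD5L KO kidneys given PBS, and −0.05, −0.07, 0.02, −0.12 and −0.10 in WT kidneys given PBS. WT kidneys given rCD5L were at −0.19, −0.13, −0.24, −0.20 and −0.24. CD5L KO kidneys given rCD5L were spread widely, at 0.02, −0.05, 0.28, 0.65 and 0.02, with replicates 3 and 4 high.

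The same order is visible in counts of genes. In CD5L KO kidneys given PBS, 73 to 92 of the 99 members lay above their mean over all kidneys, in WT kidneys given PBS 13 to 61, and in WT kidneys given rCD5L 2 to 5. Among CD5L KO kidneys given rCD5L the number ranged from 28 to 97. Members took 0.440% to 0.459% of all counts in CD5L KO kidneys given PBS, 0.398% to 0.420% in WT kidneys given PBS and 0.372% to 0.389% in WT kidneys given rCD5L, without overlap between these 3 groups, and 0.419% to 0.481% in CD5L KO kidneys given rCD5L. The spread between kidneys was small in the first 3 groups, with a median coefficient of variation over members of 6.11%, 6.60% and 6.03%, and 27.0% in CD5L KO kidneys given rCD5L, or 12.5% without replicate 4.

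**Figure D1:**
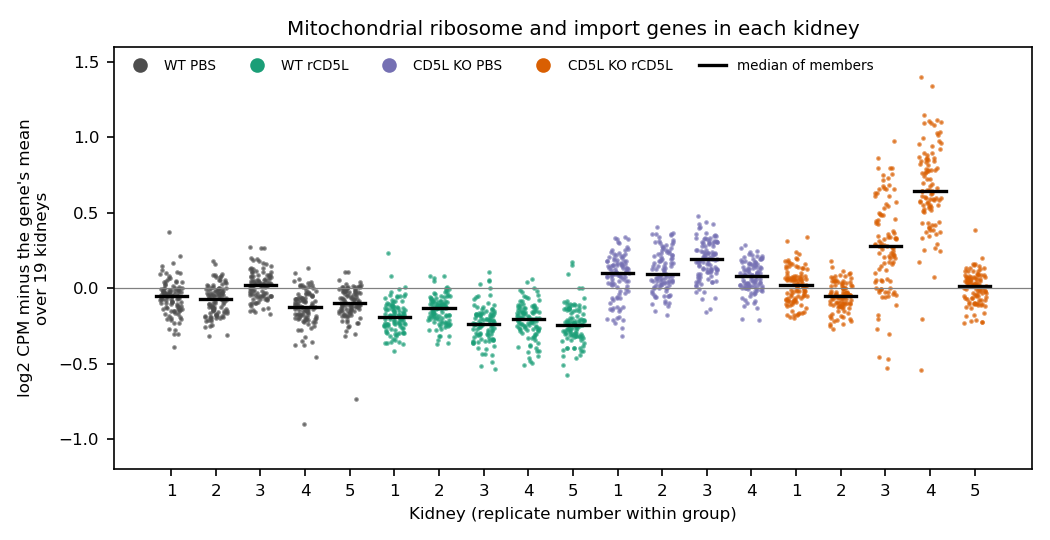
Each point is 1 of 99 tested members in 1 kidney, as the log2 CPM minus that gene's mean over all 19 kidneys, and the bar is the median over members. The medians are at 0.08 to 0.19 in CD5L KO kidneys given PBS and at −0.24 to −0.13 in WT kidneys given rCD5L, and replicate 4 of CD5L KO given rCD5L stands highest at 0.65.

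Without CD5L, and with PBS injections only, the mitochondrial ribosome and import genes were mostly higher than in WT kidneys. Of the 99 tested members, 36 rose and 1 fell (edgeR quasi-likelihood test, Benjamini-Hochberg adjusted p under 0.05). Over all 17579 genes tested, 10.5% were called, 5.13% higher and 5.40% lower. The point estimate was above 0 for 88 members and the median log2 fold change was 0.19, with a range of −0.24 to 0.44, against a median of −0.005 over all genes. All differences were under 1 on the log2 scale. In 41 members every CD5L KO kidney lay above every WT kidney, a pattern that 7.26% of all genes showed.

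Of the large subunit genes, the biggest class, 21 of 48 rose. Of the members numbered after bacterial ribosomal proteins, 9 of 28 rose (Mrpl9, Mrpl11, Mrpl13, Mrpl20, Mrpl23, Mrpl24, Mrpl27, Mrpl30 and Mrpl35). Of those with numbers specific to mitochondria, 12 of 20 rose (Mrpl39, Mrpl40, Mrpl41, Mrpl42, Mrpl43, Mrpl46, Mrpl47, Mrpl48, Mrpl50, Mrpl51, Mrpl52 and Mrpl54). The class medians were close, 0.20 and 0.22 on the log2 scale.

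Mrpl41, a mitochondria-specific protein of the large subunit (chr2:24974117-24975098, GRCm38), measured 27.9, 25.1, 28.0, 26.2 and 24.9 CPM in WT kidneys given PBS and 34.7, 37.1, 38.9 and 32.7 CPM in CD5L KO kidneys given PBS. The groups did not overlap, and the log2 fold change was 0.44 (SE 0.07, adjusted p = 0.00566 by edgeR). Mrpl30, the counterpart of bacterial L30 (chr1:37890477-37898535), measured 61.5, 65.0, 63.6, 57.3 and 55.0 CPM in WT and 82.7, 79.8, 82.0 and 76.2 CPM in CD5L KO kidneys. Here too all CD5L KO kidneys were higher, by 0.40 on the log2 scale (SE 0.06, edgeR adjusted p = 0.00497), the smallest adjusted p among the members. Mrpl54 rose by 0.42, Mrpl35 and Mrpl47 by 0.39 each and Mrpl27 by 0.36. Mrpl12, the stalk protein related to bacterial L7/L12, varied more between kidneys (44.9 to 68.4 CPM in CD5L KO, 43.1 to 58.0 CPM in WT) and did not pass (0.18, adjusted p = 0.333 by edgeR).

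Of the Mrps genes, 7 of 29 were called higher: Mrps14, Mrps16 and Mrps18c among the bacterial-type numbers, and Mrps24, Mrps28, Mrps33 and Mrps36 among the mitochondria-specific ones. Mrps36, despite its name, is known as a subunit of the 2-oxoglutarate dehydrogenase complex and not of the ribosome. The median log2 fold change of the Mrps genes was 0.17. Mrps18c, 1 of 3 mammalian relatives of bacterial S18 (chr5:100798627-100804471), measured 18.4, 15.3, 16.8, 13.6 and 14.8 CPM in WT and 22.0, 22.3, 20.7 and 20.4 CPM in CD5L KO kidneys given PBS. Its log2 fold change was 0.43 (SE 0.09, edgeR adjusted p = 0.0130), without overlap of the groups. Its relatives Mrps18a (0.04, adjusted p = 0.802) and Mrps18b (−0.05, adjusted p = 0.837) did not pass the edgeR test. Mrps14, the counterpart of bacterial S14, measured 42.2, 35.7, 42.7, 41.7 and 44.5 CPM in WT and 49.6, 54.2, 54.9 and 54.2 CPM in CD5L KO kidneys, a log2 fold change of 0.36 (SE 0.07, edgeR adjusted p = 0.00873). Mrps35 did not pass (0.17, adjusted p = 0.134).

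Among the import genes of the inner membrane and intermembrane space, 4 of 14 rose. The point estimate was above 0 for all 14 tested Timm genes, with a median of 0.13. Timm8b, a chaperone of the intermembrane space (chr9:50603910-50605320), measured 41.6, 43.2, 49.3, 37.5 and 44.4 CPM in WT and 56.9, 52.6, 60.0 and 53.9 CPM in CD5L KO kidneys given PBS. The groups did not overlap (log2 fold change 0.36, SE 0.07, edgeR adjusted p = 0.0109). Timm10, another small TIM chaperone, rose by 0.35 (adjusted p = 0.0104), while its partner Timm9 had a log2 fold change of 0.01 (adjusted p = 0.964). Timm8a1, the paralogue of Timm8b, had 0.24 with a wider error (SE 0.12, adjusted p = 0.228), and Timm13 had 0.14 (adjusted p = 0.0968).

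In the TIM23 complex, the called members were Timm17a, a channel subunit (0.24, edgeR adjusted p = 0.0414), and Timm21, which docks the complex to TOM (0.27, adjusted p = 0.0220). The channel protein Timm23 (0.16, adjusted p = 0.307), the receptor Timm50 (0.07, adjusted p = 0.474), the motor tether Timm44 (0.02, adjusted p = 0.830) and the paralogue Timm17b (0.08, adjusted p = 0.529) did not pass. Timm22, the core of the TIM22 complex, did not pass either (0.12, adjusted p = 0.311).

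In the outer membrane, 4 of 8 tested Tomm genes rose and 1 fell. The receptor Tomm20 (chr8:126930667-126945844) measured 121, 123, 136, 123 and 114 CPM in WT and 153, 142, 166 and 145 CPM in CD5L KO kidneys given PBS, without overlap (0.29, SE 0.06, edgeR adjusted p = 0.0146). The small subunit Tomm5 measured 38.9, 43.9, 39.9, 38.9 and 39.4 CPM in WT and 49.98, 50.1, 55.1 and 50.1 CPM in CD5L KO kidneys (0.35, SE 0.06, edgeR adjusted p = 0.00599). The small subunit Tomm7 (0.32, adjusted p = 0.0227) and the receptor Tomm22 (0.19, adjusted p = 0.0349) also rose. The channel protein Tomm40 had a log2 fold change of −0.01 (adjusted p = 0.977) and the receptor Tomm70a 0.09 (adjusted p = 0.292).

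Tomm34 was the exception in direction. It encodes a cytosolic cochaperone that binds precursor proteins before import and is not a subunit of the TOM complex. It measured 47.1, 43.2, 44.8, 39.2 and 43.8 CPM in WT and 37.9, 36.5, 36.4 and 37.9 CPM in CD5L KO kidneys given PBS, so that all CD5L KO kidneys were lower (log2 fold change −0.24, SE 0.06, edgeR adjusted p = 0.0283). The call was lost in 7 of the 9 fits that left out 1 kidney, those without WT PBS replicate 3 or 4 being the exceptions.

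**Figure D2:**
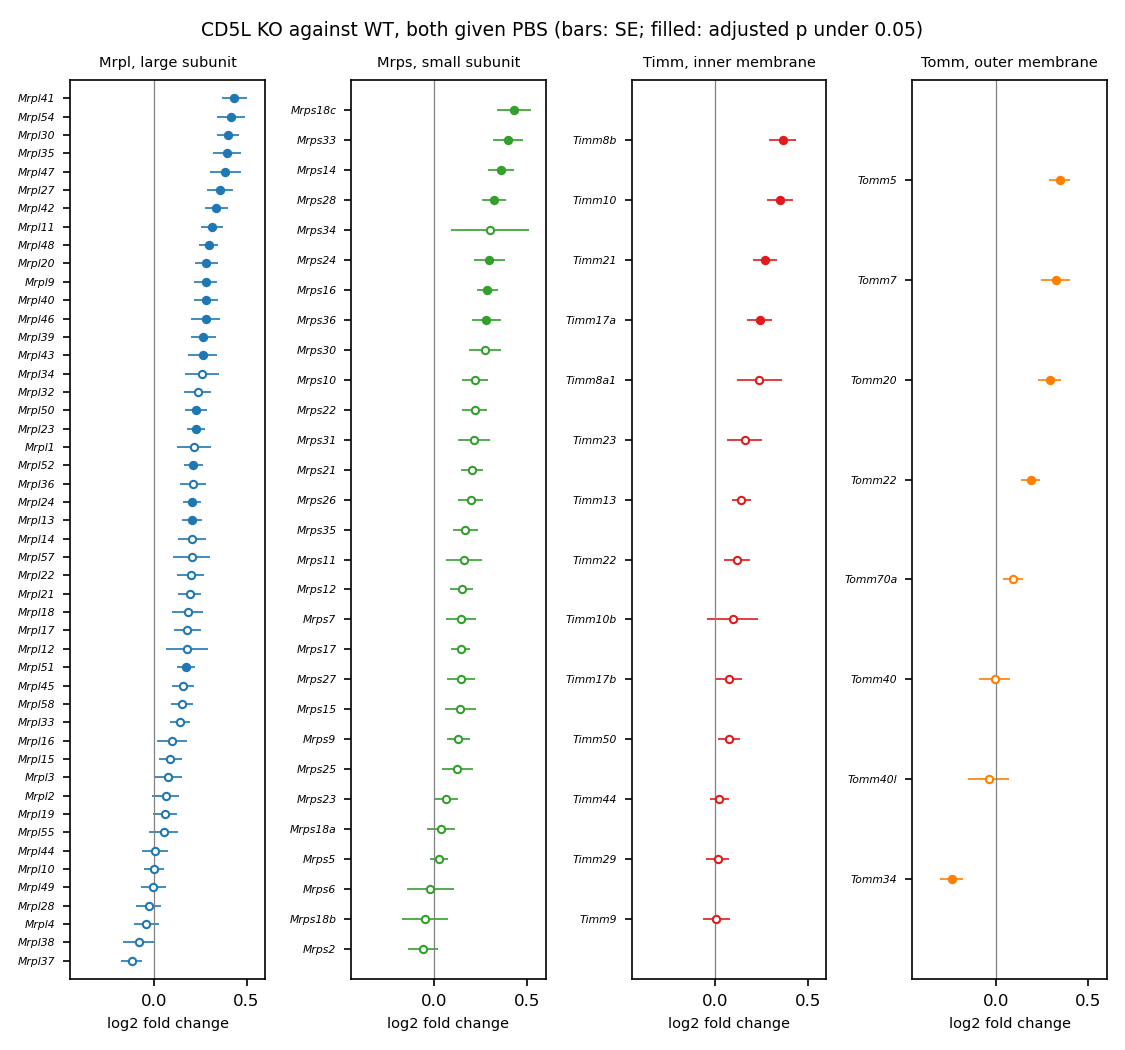
Log2 fold change of each tested member, CD5L KO against WT kidneys given PBS (4 against 5 kidneys), with its standard error, in 4 panels by class; filled points have an adjusted p under 0.05. The estimates run from −0.24 (Tomm34) to 0.44 (Mrpl41), and 88 of 99 lie above 0.

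The number of called members depended on which kidneys were fitted. It was 36 higher and 1 lower as above, 43 and 1 with DESeq2 (14.9% of all genes called in either direction), and between 22 and 39 in all when 1 of the 9 kidneys was left out (5.81% to 11.8% of all genes), with 22 without CD5L KO PBS replicate 1, 23 without WT PBS replicate 2, and 24 without CD5L KO PBS replicate 2 or WT PBS replicate 4. It was 0 in a fit over all 19 kidneys with a common spread, which called 12 genes in all, and 18 in that fit without replicate 4 of CD5L KO given rCD5L, which called 4.03% of all genes.

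Gene length moved with this comparison, and members are short. The median gene length was 2550 bases for the tested members and 3808 bases for all genes tested. Among other genes, the median log2 fold change of CD5L KO against WT fell with length, from 0.18 in genes under 1000 bases to 0.10 from 1000 to 2000 bases, 0.02 from 2000 to 4000 bases and −0.06 above. Members lay above other genes of like length in each bin, with medians of 0.35 (11 members), 0.18 (29), 0.16 (31) and 0.17 (28). The share called higher was 63.6%, 41.4%, 29.0% and 28.6% of the members in these bins, against 9.21%, 9.11%, 5.65% and 2.61% of the other genes.

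With an offset that removes the trend on gene length (a smooth curve fitted in each kidney), 21 members rose and 1 fell, against 3.88% of all genes called higher, and the median was 0.15 with 82 of 99 above 0. Mrpl30 (0.38, adjusted p = 0.00868), Mrpl41 (0.28, adjusted p = 0.0214), Mrps14 (0.34, adjusted p = 0.0160) and Tomm20 (0.32, adjusted p = 0.0160) still passed the edgeR test. The short genes Timm8b (0.17, adjusted p = 0.194), Timm10 (0.19, adjusted p = 0.130), Tomm5 (0.19, adjusted p = 0.0683) and Mrps18c (0.29, adjusted p = 0.0529) no longer did. The part of gene length in the result beyond this offset was not tested.

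Markers of other cells moved in the same comparison. Of 8 fibroblast and myofibroblast markers 6 were lower in CD5L KO kidneys (summed level 4021 to 5240 CPM, against 5543 to 8094 CPM in WT), as were 4 of 6 endothelial markers (669 to 746 against 818 to 899 CPM) and 1 of 8 macrophage markers. None of the 10 proximal tubule markers passed (1841 to 3443 against 2029 to 4201 CPM), nor did any of the 6 urothelial markers, although their sum did not overlap (248 to 395 against 30.5 to 210 CPM). Of 5 injured tubule, 5 thick ascending limb, 8 lymphocyte and 4 tested epididymal markers 0 passed the edgeR test, with 3 of them under 0.05 unadjusted. The part of these cell types in the members' difference was not tested.

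Partner genes of the same processes came from lists of genes outside the name rule, and their calls are read against the 10.5% of all genes called. Of 36 partners of mitochondrial translation and transcription 7 rose and 0 fell in the edgeR test, with 24 estimates above 0 and 12 below (median log2 fold change 0.08): the small subunit proteins Aurkaip1 (0.35) and Chchd1 (0.39), the ribosome assembly factors Mterf4 (0.37) and Fastkd2 (0.26), the DNA packaging factor Tfam (0.21), the transcription factor Tfb2m (0.18) and the release factor Mtrf1 (0.36). Of 24 import partners 6 rose and 0 fell, with 17 estimates above 0 and 7 below (median 0.15): the import motor proteins Dnajc15 (0.42) and Grpel1 (0.19), the chaperonin Hspe1 (0.32), the inner membrane peptidase Immp1l (0.45), the outer membrane protein Mtx2 (0.28) and the intermembrane space oxidase Gfer (0.23). Of 17 mitochondrial tRNA synthetases Lars2 rose (1.25) and Tars2 fell by 0.30 on the log2 scale, with 8 estimates above 0 and 9 below and a median of −0.01, and these 2 calls of 17 are a share near that of all genes. Lars2 had the largest standard error of these synthetases (0.31) and the highest level (mean log2 CPM 7.85, the others up to 6.60). How reads that map to several places were handled was not given, and their part in the Lars2 value was not tested.

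In WT mice, rCD5L went with lower members in nearly every gene, but no single gene passed the adjusted edgeR test. The point estimate was below 0 for 96 of 99 members, and the median log2 fold change was −0.12, against 0.005 over all genes. With edgeR, 0 members and 0% of all genes had an adjusted p under 0.05 (the smallest among members was 0.104). At an unadjusted p under 0.05, 43 members were lower and 0 higher, against 7.71% of all genes lower. In 13 members every kidney given rCD5L lay below every kidney given PBS, which 2.11% of all genes showed. DESeq2 called 6 members, all lower, and 1.76% of all genes lower.

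Timm13, which forms a chaperone complex with Timm8a1 (chr10:80899450-80900969), had the smallest p. It measured 76.5, 75.2, 76.9, 75.9 and 76.8 CPM in WT kidneys given PBS and 64.1, 72.4, 61.6, 64.4 and 63.3 CPM in those given rCD5L. The groups did not overlap, with a log2 fold change of −0.21 (SE 0.05, edgeR adjusted p = 0.104). The channel protein Timm23 (chr14:32180162-32201898) measured 45.6, 48.4, 54.1, 55.2 and 45.7 CPM with PBS and 39.4, 44.8, 42.4, 40.6 and 38.0 CPM with rCD5L, again without overlap (−0.26, SE 0.07, edgeR adjusted p = 0.117). The large subunit gene Mrpl52 measured 61.1 to 66.5 CPM with PBS and 51.4 to 59.7 CPM with rCD5L (−0.18, edgeR adjusted p = 0.121). DESeq2 called these 3 genes.

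By class, 24 of 48 Mrpl, 8 of 29 Mrps, 9 of 14 Timm and 2 of 8 Tomm genes were lower at an unadjusted p under 0.05. All 14 Timm and all 8 tested Tomm genes had estimates below 0. In the TIM23 complex 5 of 6 members were below that unadjusted threshold. With the gene length offset, 93 of 99 members were below 0, 32 were lower at an unadjusted p under 0.05 (7.62% of all genes) and the median was −0.10.

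Among marker lists in this comparison, 8 of 10 proximal tubule markers were lower at an unadjusted p under 0.05 (summed level 1675 to 2603 CPM with rCD5L, 2029 to 4201 CPM with PBS), and 3 of 4 tested epididymal genes were higher (16.2 to 39.7 against 12.1 to 24.6 CPM). Of 6 endothelial markers 2 were lower (771 to 863 with rCD5L, 818 to 899 CPM with PBS), as was 1 of 8 fibroblast and myofibroblast markers, and 1 of 5 injured tubule and 1 of 8 macrophage markers were higher. All 8 macrophage markers (4173 to 4803 against 3459 to 4935 CPM) and all 8 lymphocyte markers (36.6 to 55.4 against 28.8 to 53.5 CPM) had estimates above 0. Of 7 listed epididymal genes Cst11 had 0 counts in every kidney. The part of these cells in the members' difference was not tested. Of the partner lists, 6 of 36 translation partners, 8 of 24 import partners and 3 of 17 tRNA synthetases were lower at an unadjusted p under 0.05, against 7.71% of all genes, and 0 were called by edgeR.

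In CD5L KO mice, no single member passed the adjusted test for rCD5L against PBS. The estimate was above 0 for 75 of 99 members (median 0.13, all genes 0.02), but 0 members were called by edgeR or DESeq2, and 0 had an unadjusted p under 0.05 in either direction, against 2.87% of all genes. Over all genes edgeR called 0% and DESeq2 0.0573%. The direction turned with 1 kidney. Without replicate 4, 62 of 99 were below 0, the median was −0.04, and 7 members were lower at an unadjusted p under 0.05, against 2.62% of all genes, with 0 called. Every kidney given rCD5L then lay below every kidney given PBS in 9 members, which 2.93% of all genes showed, and with replicate 4 in 0 members.

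The kidneys of this group were widely spread. Mrpl41 measured 32.4, 27.1, 29.9, 49.7 and 29.6 CPM in CD5L KO kidneys given rCD5L, with replicate 4 above and the others below the PBS range of 32.7 to 38.9 CPM. Tomm20 measured 144, 127, 159, 240 and 134 CPM against 142 to 166 CPM with PBS. For Timm13 both replicates 3 and 4 were high, at 125 and 114 CPM, with the others at 70.0, 71.9 and 78.9 CPM and the PBS range at 79.4 to 91.6 CPM. Mrpl38 had the smallest unadjusted p among the members (0.39, SE 0.21, adjusted p = 0.897 by edgeR, and 0.23, adjusted p = 0.763, without replicate 4).

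Replicates 3 and 4 differed in other respects. Replicate 3 had a normalisation factor of 0.890, 7779 CPM of fibroblast markers, the highest epididymal sum of all kidneys (60.3 CPM) and a proximal tubule sum within the range of the other kidneys. The members in replicate 4 deviated by 0.75, 0.61 and 0.59 on the log2 scale in genes under 2000 bases, from 2000 to 4000 bases and above, while all genes of these lengths deviated by −0.01, −0.09 and −0.15. In replicate 3 the members deviated by 0.31, 0.33 and 0.17 and all genes by 0.11, 0.07 and −0.13. Between rCD5L and PBS in CD5L KO mice, 4 of 5 tested epididymal genes were higher and 2 of 6 urothelial markers lower at an unadjusted p under 0.05, with and without replicate 4. With it 1 of 10 proximal tubule markers was also higher (median 1.38, and −0.03 without it), and without it 2 of 8 fibroblast and myofibroblast (median 0.34), 1 macrophage and 1 injured tubule marker were. The part of tissue composition in these 2 libraries was not tested.

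**Figure D3:**
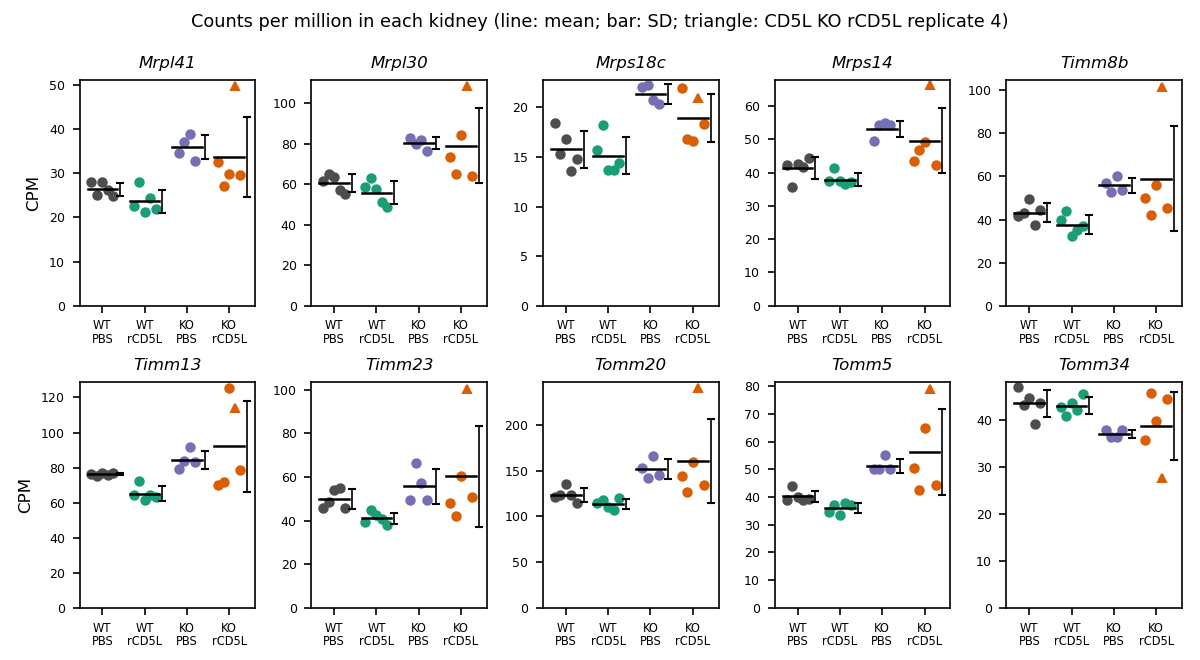
Level in CPM of 10 members in each kidney of the 4 groups, with the mean (line) and SD (bar); the triangle is replicate 4 of CD5L KO given rCD5L. For Mrpl41 the CD5L KO kidneys given PBS (32.7 to 38.9 CPM) lie above the WT kidneys given PBS (24.9 to 28.0 CPM), and for Tomm20 the triangle stands at 240 CPM.

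Among mice given rCD5L, CD5L KO kidneys had higher members than WT kidneys in 97 of 99 genes, with a median log2 fold change of 0.44 against −0.01 over all genes. With edgeR, 0 members and 0% of all genes were called (smallest adjusted p among members 0.259), and DESeq2 called 2 members higher and 0.34% of all genes higher. At an unadjusted p under 0.05, 78 members were higher and 0 lower, against 11.0% of all genes higher. In 44 members the groups did not overlap, with CD5L KO higher, against 4.29% of all genes, and the number was 44 without replicate 4 too, against 868 of 17360 genes. This comparison and that of rCD5L with PBS in WT mice share the WT kidneys given rCD5L, which had the lowest members of all groups.

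Without replicate 4 the difference was smaller but kept its direction in most genes. The estimate was above 0 for 94 of 99 members with a median of 0.27, and 67 were higher at an unadjusted p under 0.05, against 8.82% of all genes, with 0 called. In a fit of all 19 kidneys 57 members were called higher, against 5.03% of all genes, and in that fit without replicate 4 there were 27, against 2.02%. With the gene length offset 97 were above 0, 58 were higher at an unadjusted p under 0.05, against 10.3% of all genes, and the median was 0.39, against 0.03 over all genes.

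Mrpl55, a mitochondria-specific protein of the large subunit (chr11:59202486-59206134), had the smallest p. It measured 21.1, 18.97, 18.6, 19.02 and 20.4 CPM in WT and 26.0, 25.5, 29.4, 33.6 and 25.7 CPM in CD5L KO kidneys given rCD5L. The groups did not overlap with or without replicate 4 (log2 fold change 0.51, SE 0.11, edgeR adjusted p = 0.259, and 0.43, adjusted p = 0.120, without it). Mrpl40 (0.46, edgeR adjusted p = 0.259) measured 27.6 to 30.98 CPM in WT and 35.1 to 47.6 CPM in CD5L KO kidneys, and its log2 fold change without replicate 4 was 0.37 (adjusted p = 0.144). Tomm5 measured 34.4, 37.3, 33.6, 37.8 and 37.0 CPM in WT and 50.6, 42.6, 65.0, 79.1 and 44.3 CPM in CD5L KO kidneys (0.65, edgeR adjusted p = 0.259, and 0.48, adjusted p = 0.162, without replicate 4). DESeq2 called Mrpl55 and Mrpl40.

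In this comparison 8 of 10 proximal tubule markers were higher in CD5L KO kidneys at an unadjusted p under 0.05, and 4 of 10 without replicate 4, when the sums ran from 2274 to 3607 CPM in CD5L KO and from 1675 to 2603 CPM in WT kidneys. Of 8 fibroblast and myofibroblast markers 2 were lower at that threshold with and without replicate 4 (summed level 1889 to 7779 CPM in CD5L KO, 5790 to 7767 CPM in WT, and 3987 CPM upwards in CD5L KO without it), as were 2 of 6 endothelial markers (694 to 914 against 771 to 863 CPM). Of 5 thick ascending limb markers 1 was higher and 1 lower, and 0 and 2 without replicate 4. All 6 urothelial markers had estimates above 0, with a median of 0.46 and 0 past the unadjusted threshold, and a median of 0.54 and 2 past it without replicate 4. Without that kidney 1 of 5 injured tubule markers was also higher and 1 of 8 macrophage markers lower. The part of these cells in the members' difference was not tested. Import partners were higher at an unadjusted p under 0.05 in 16 of 24 genes, translation partners in 10 of 36 and tRNA synthetases in 3 of 17, against 11.0% of all genes, and without replicate 4 in 13, 7 and 2, against 8.82%, with 0 called by edgeR in either fit. The tRNA synthetases were thus near the share over all genes in the fit without replicate 4.

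The test of the difference itself, whether rCD5L acted otherwise in CD5L KO than in WT mice (the interaction), called 0 members with edgeR and with DESeq2, and 0% of all genes with edgeR. The estimate was above 0 for 91 of 99 members, meaning a higher response in CD5L KO mice, with a median of 0.29, and 14 were higher at an unadjusted p under 0.05, against 4.41% of all genes. Without replicate 4, 70 were above 0, the median was 0.09 and 7 passed the unadjusted threshold, against 2.95% of all genes. In the same test 9 of 10 proximal tubule markers were higher at an unadjusted p under 0.05 (median 1.91), and 1 of 10 without replicate 4 (median 0.44), and their part in the members' difference was not tested. Mrpl55 had the smallest p among the members (0.48, edgeR adjusted p = 0.731, and 0.38, adjusted p = 0.853, without replicate 4). Its mean was 23.7 ± 2.15 CPM (SD, n = 5) with PBS and 19.6 ± 1.07 CPM (SD, n = 5) with rCD5L in WT mice, and 24.7 ± 1.42 CPM (SD, n = 4) and 28.0 ± 3.52 CPM (SD, n = 5) in CD5L KO mice.

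**Figure D4:**
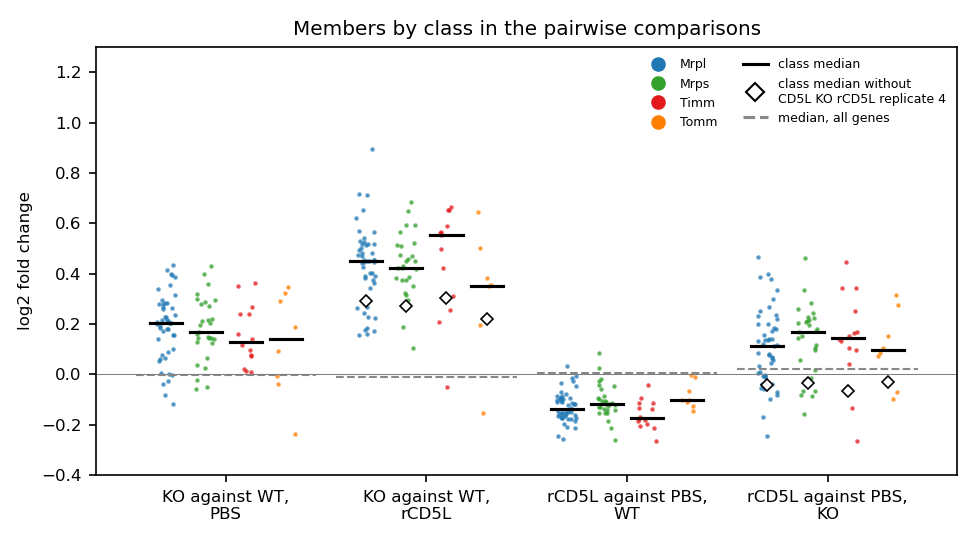
Log2 fold changes of the 99 tested members by class in the 4 comparisons of groups, with the class median as a bar, diamonds for the class median without replicate 4 of CD5L KO given rCD5L, and a dashed line for the median of all genes. Class medians lie above 0 for CD5L KO against WT under PBS (0.13 to 0.21) and under rCD5L (0.35 to 0.56) and below 0 for rCD5L in WT mice (−0.17 to −0.10), and those for rCD5L in CD5L KO mice fall below 0 without replicate 4.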

How the data were processed

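Whole obstructed kidneys of 19 mice were analysed from the deposited table. Per the study's methods, the authors trimmed paired reads (Trimmomatic), mapped them onto GRCm38 (HISAT2) and assigned them to genes (featureCounts); versions, strand setting and handling of reads that map to several places were not given in the sources used here. The deposited raw counts per gene were tested, and the deposited FPKM values, which the authors scaled to gene length and library size, served only for levels between genes and as an alternative.

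Genes were filtered with filterByExpr (minimum count 10), scaled by TMM and tested with edgeR 4.0.16 (quasi-likelihood, R 4.3.3) between the groups of each comparison, and over all 4 groups for the interaction, with Benjamini-Hochberg adjustment over all genes tested and a threshold of 0.05. CPM are TMM-scaled, and deviations used a prior count of 2. The length offset was a lowess fit (span 0.3) of each kidney's log ratio on gene length. Alternatives were DESeq2 1.42.0, limma 3.58.1 on log2(FPKM + 1) or log2(FPKM + 0.1), other filters and factors, other sets of kidneys, a block on replicate number and a log2 fold change of at least 1. Replicates are separate mice per the labels. All 36 pairs of kidneys within a group differed beyond counting noise (chi-square per degree of freedom 6.63 to 319).

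Named were the 10 called members with the largest change and no overlap, those called in the rarer direction, the 3 with the smallest p where none was called, the highest and lowest 3 by FPKM in each class, and listed core members and paralogues; other called members were named after their values were seen. Members and lists were chosen with earlier results of these data known.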

Additional observations from a re-analysis of the deposited data

Results flagged for a closer look

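Of 132 groups of kidneys examined, for 32 named members and for the share of counts on all members, 18 held a kidney whose gap to the nearest other kidney was large for the range of its group (Dixon's criterion), where chance gives about 1 in 20. In 10 of them it was replicate 4 of CD5L KO given rCD5L, the library with the high proximal tubule markers: Mrpl41 at 49.7 CPM (other kidneys of the group 27.1 to 32.4), Mrps33 at 52.6, Mrpl35 at 55.7, Timm8b at 101 (42.2 to 56.1), Tomm20 at 240, Tomm22 at 87.9, Timm17a at 132, Timm44 at 81.3, Timm9 at 46.5 (17.2 to 19.8) and Mrps35 at 76.6 CPM. The other 8 were spread over 5 kidneys. They were Mrps14 (41.2 CPM) and Timm13 (72.4 CPM), both high in WT rCD5L replicate 2, Mrps14 low in CD5L KO PBS replicate 1 (49.6 CPM), and Mrpl38 (71.8 CPM) and Mrpl40 (37.7 CPM) high in WT PBS replicate 3. Tomm5 was high in WT PBS replicate 2 (43.9 CPM) and in CD5L KO PBS replicate 3 (55.1 CPM), and Mrps35 was high in the latter kidney (45.4 CPM). In 0 named members did rCD5L move all CD5L KO and all WT kidneys in opposite directions.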

How the results depend on the processing

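For CD5L KO against WT under PBS, 37 members were called, beside 10.5% of all genes. The members called became 22 with the gene length offset (7.42% of all genes). With that offset and the replicate block together they were 19 (8.45% of all genes, member median log2 fold change 0.13). They were 0 both with all 19 kidneys in 1 fit (0.065% of all genes) and with a log2 fold change of at least 1 (0.205%). The block alone gave 34 calls among members, while the share of all genes called was 12.1%, and it changed no call elsewhere, where 0 stayed 0. Over 27 pairs of kidneys with the same replicate number the correlation of deviations was −0.19 to 0.17 (median −0.002). In 6 pairs it exceeded 0.1, 3 of them among the 4 pairs of CD5L KO given PBS and CD5L KO given rCD5L (0.02 to 0.17). The labels do not say whether equal numbers share a cage or a processing step, and these correlations cannot exclude it. DESeq2 called 6 members for rCD5L in WT mice (3.11% of all genes) and 2 for CD5L KO against WT under rCD5L (0.864%). In the latter comparison 1 fit of all 19 kidneys called 57 members (7% of all genes).

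Leaving out 1 kidney at a time, with 1 fit of all groups without replicate 4 of CD5L KO given rCD5L added after seeing the data, gave 18 to 39 calls for CD5L KO against WT under PBS (medians 0.16 to 0.21) and 0 to 27 under rCD5L (0.27 to 0.50). It gave 0 calls for rCD5L in CD5L KO mice (medians −0.05 to 0.20), for rCD5L in WT mice (−0.14 to −0.11) and for the interaction (0.09 to 0.36). The interaction median of 0.092 was that without CD5L KO rCD5L replicate 4.

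For the partner lists, also added after seeing the data, translation partners went from 7 calls to 4 without the filter and 0 with all 19 kidneys in 1 fit or a log2 fold change of at least 1, with 2 to 7 when leaving out kidneys. Import partners went from 6 to 3 with the length offset and 0 in the same 2 fits (2 to 10). The 2 called tRNA synthetases became 0 with all 19 kidneys and 1 with the block, the length offset, both, a log2 fold change of at least 1 or limma on FPKM at either pseudocount (0 to 2). The cause was not tested. Among the named members, no called value changed direction in the alternatives run. With 4 or 5 kidneys a group, the spread between kidneys set the precision, and its median coefficient of variation over members was 27.0% in CD5L KO kidneys given rCD5L (12.5% without replicate 4) against 6.03% to 6.60% elsewhere.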
